A study of Mus musculus with 2 samples.

Results

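Chromatin loops at 10 genes of synaptic vesicle release and the postsynaptic density were followed in mouse cerebral cortex after experimental stroke or sham surgery. The genes, out of 21887 protein-coding genes placed on mm10, were Snap25, Stx1a, Syt1, Syn2, Dlg4, Shank2, Shank3, Homer1, Camk2a and Camk2b. A loop was assigned to a gene when an anchor lay within 2.5 kb of either end of that gene. In this way 14 of 14779 loops in sham and 22 of 15592 loops in MCAO were found. In the stroke group (MCAO, middle cerebral artery occlusion) a filament closed the artery for 1 h, and cortex of the ischemic territory was frozen after 6 h of reperfusion. Sham mice had the same operation without advancement of the filament and the same 6 h of recovery. The labels state no strain, sex or age of the mice. Although the labels speak of 3 cortices for each group, there was 1 loop list per group, so every difference below stands without replicates and was not tested. Hi-C of whole cortex mixes neurons with glial and vascular cells, and a loop found in fewer cells cannot be told apart from a weaker loop.

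At a synapse, vesicles filled with transmitter dock at the presynaptic membrane and fuse with it when calcium enters. SNARE proteins such as those of Snap25 and Stx1a pull the membranes together, synaptotagmin 1 (Syt1) senses the calcium, and synapsins (Syn2) tether vesicles in reserve. On the other side, the scaffold proteins of Dlg4 (PSD-95), Shank2, Shank3 and Homer1 hold glutamate receptors in place, and the calcium-dependent kinase encoded by Camk2a and Camk2b changes synaptic strength. A chromatin loop in Hi-C is a pair of genome segments, the anchors, that were ligated to each other more often than their surroundings. Its support is counted in paired-end tags (PETs), not adjusted here for anchor width, and its span is the distance between the anchor midpoints.

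The start regions of 4 of the genes are shown: Syt1, whose start was covered by the most anchors in both lists, and Stx1a, Camk2b and Homer1, whose starts were covered by more anchors in MCAO. A start of Syn2, covered by 0 anchors in sham and 2 in MCAO, is not shown. RefSeq windows on GRCm38.p6, the assembly of mm10, were available for 7 of the 10 genes and run from 250 bases before the start to 50 after it. The windows below are 5′ to 3′ on the strand of the gene, with matches to a GC box (GGGCGG, bound by Sp1-type factors) or to the core of the cyclic AMP response element (TGACG) on either strand in capitals. The whole Syt1 window, chr10:109010926-109011225 on the minus strand, lay inside anchors of 5 loops in sham and 5 in MCAO. The Stx1a window, chr5:135023232-135023531 on the plus strand, lay inside 0 and 2. For Camk2b, chr11:6065699-6065998 on the minus strand, the numbers were 1 and 2. For Homer1, chr13:93303507-93303806 on the plus strand, they were 0 and 1.
Syt1: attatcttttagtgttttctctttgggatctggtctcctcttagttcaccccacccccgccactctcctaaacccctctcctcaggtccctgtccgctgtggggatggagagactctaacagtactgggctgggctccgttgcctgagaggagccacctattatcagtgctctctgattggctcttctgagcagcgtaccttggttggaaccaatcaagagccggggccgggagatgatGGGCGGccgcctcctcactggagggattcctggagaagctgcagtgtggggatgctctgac
Stx1a: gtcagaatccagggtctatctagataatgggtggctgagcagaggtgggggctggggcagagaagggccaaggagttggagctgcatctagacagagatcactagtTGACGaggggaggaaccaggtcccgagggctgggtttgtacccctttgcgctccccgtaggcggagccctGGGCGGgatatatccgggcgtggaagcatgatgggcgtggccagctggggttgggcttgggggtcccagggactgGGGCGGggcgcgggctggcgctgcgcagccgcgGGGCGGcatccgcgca
Camk2b: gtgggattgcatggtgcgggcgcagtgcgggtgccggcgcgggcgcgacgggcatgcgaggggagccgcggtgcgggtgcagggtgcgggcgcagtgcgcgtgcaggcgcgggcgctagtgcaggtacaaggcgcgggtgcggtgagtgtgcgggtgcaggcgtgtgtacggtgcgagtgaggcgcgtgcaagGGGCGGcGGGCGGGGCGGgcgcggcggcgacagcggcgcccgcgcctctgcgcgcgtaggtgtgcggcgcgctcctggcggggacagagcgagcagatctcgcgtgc
Homer1: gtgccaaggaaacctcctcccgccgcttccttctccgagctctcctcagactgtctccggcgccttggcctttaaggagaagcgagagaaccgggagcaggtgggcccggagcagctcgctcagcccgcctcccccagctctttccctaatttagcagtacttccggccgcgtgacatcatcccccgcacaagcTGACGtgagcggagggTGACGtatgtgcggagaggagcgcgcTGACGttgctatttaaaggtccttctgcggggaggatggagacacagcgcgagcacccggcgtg
GC boxes were counted 1 time at Syt1 and 3 times each at Stx1a and Camk2b, against 35.7% of all 32851 windows with at least 1. The Homer1 window had no GC box and 3 cyclic AMP response cores, and the Stx1a window had 1 such core. Syt1 and Homer1 each had another listed start window, not shown, with no GC box and no such core. It lay inside as many anchors as the window shown. At least 1 of these cores was found in 20.8% of all windows. The Camk2b window was 77.3% G and C with 51 CG pairs, where the median of all windows was 52.7% with 7 pairs. The letters GGNGGCAG, a core of the motif of the insulator protein CTCF, were in none of these 4 windows and in 12.6% of all windows. Such matches describe the sequence and do not show that a factor was bound.

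Counted within 2.5 kb of gene ends, the release genes and the kinase genes had most of the excess of MCAO loops, while the number at each scaffold gene was equal or lower in MCAO. This contrast depended on the window. With 10 kb, Shank2 had 3 loops in sham and 4 in MCAO, Shank3 0 and 2, and Dlg4 and Homer1 1 and 1 each. The counts that follow are for 2.5 kb. Snap25 had 0 loops in sham and 3 in MCAO, Stx1a 0 and 2, Camk2b 1 and 3, and Syn2 and Camk2a 2 and 3 each. Syt1 had 5 and 5, Shank2 2 and 2, and Homer1 1 and 1. Dlg4 had 1 and 0, and Shank3 had 0 and 0. So 5 of the 10 genes had more loops in MCAO (28.7% of all protein-coding genes did) and 1 had fewer (20.7% of all). Equal numbers were found at 4 of the 10 genes (50.6% of all). A gain of at least 2 loops was found at 3 genes (9.77% of all). A loop was present at 7 of the 10 genes in sham, against 43.0% of all genes, and at 8 in MCAO, against 47.9%. Shank3 alone had none in either list, as did 38.4% of all genes.

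**Figure D1:**
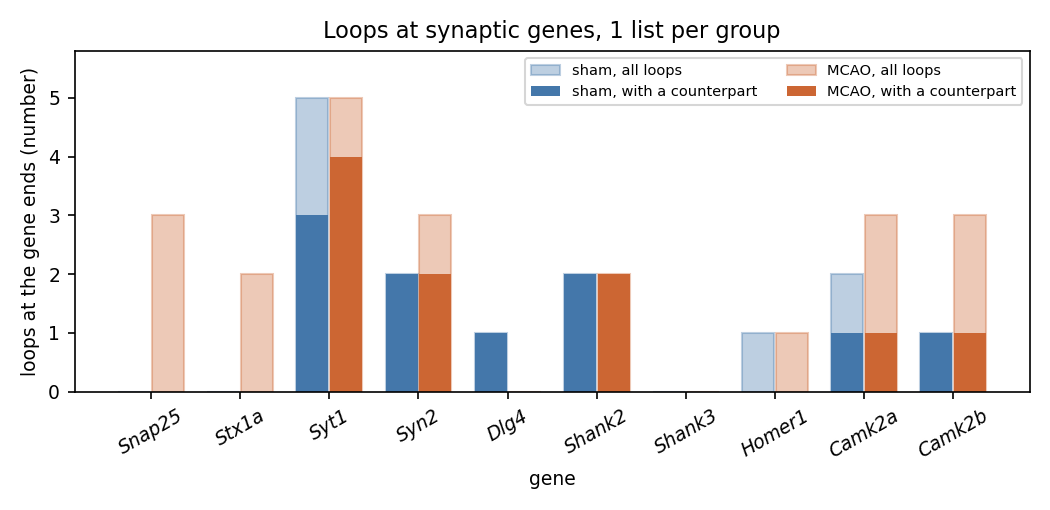
Number of loops (vertical axis) within 2.5 kb of the ends of each gene (horizontal axis) in the sham (blue) and MCAO (orange) lists, with the loops that had a counterpart in the other list in full colour. Syt1 stands highest with 5 loops in each list, and Snap25 and Stx1a have loops in MCAO only, none of them with a counterpart.

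The total of 22 against 14 loops is a ratio of 1.57 (95% exact binomial interval 0.769 to 3.32, counting error only), and the interval holds 1. All loops at the ends of protein-coding genes had a ratio of 1.23 (1.19 to 1.27). The MCAO library was also deeper, with 40550536 PETs against 34974213, a ratio of 1.16. Only loops of at least 10 PETs are listed, so that a loop absent from a list may lie just under this minimum. With the MCAO minimum raised in proportion to depth, to 12 PETs, 16 loops were left in MCAO against 14 in sham, a ratio of 1.14. Snap25 then had 1 loop, Stx1a 1 and Camk2b 1 in MCAO, with 0, 0 and 1 in sham.

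Syt1 (chromosome 10, 108497650 to 109010980) was the most looped of the 10 genes. Genes with 5 or more loops made up 0.900% of all genes in sham and 1.46% in MCAO. Every one of its loops had an anchor at the start of the gene, and in each list 1 loop joined the start to the far end of the gene. That end-to-end loop spanned 520 kb with 39 PETs in sham and 461 kb with 32 PETs in MCAO. A second MCAO loop of 14 PETs ran from the start to 108441277 to 108461040, beyond the far end, and was matched to the same sham loop. As its sham anchor is wide, at 80.9 kb, the pair of MCAO loops cannot be separated in sham. Upstream of the start, the loop of 485 kb to 109482866 to 109506215 had 13 PETs in sham and 25 in MCAO. Per 1000000 PETs these are 0.372 and 0.617, a log2 ratio of 0.73. This distal anchor held no end of a protein-coding gene within 2.5 kb, and the nearest, of the neuronal navigator gene Nav3, was 175 kb away. A nearer upstream loop had a span of 93.2 kb with 11 PETs in sham and of 111 kb with 17 PETs in MCAO. Its 2 far anchors, 109100815 to 109107009 and 109108711 to 109129853, lie side by side without overlap.

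The other upstream contacts of Syt1 were listed in 1 library each. The sham list had a loop of 711 kb with 39 PETs, as many as 4.13% of the loops of that list reached. It led to 109684847 to 109754930, inside Nav3, and its anchors were wide, at 64.5 and 70.1 kb. A shorter sham loop, of 327 kb, had 10 PETs with anchors of 13.9 and 13.5 kb. As the PETs were not adjusted for anchor width, they do not rank these loops by strength. In MCAO the contact inside Nav3 lay farther off, at 109831953 to 109871869, with a span of 840 kb and 10 PETs. The anchors of this MCAO loop were 15.1 and 39.9 kb wide. Neither Nav3 loop had a counterpart, and the nearest MCAO loop to the 711 kb sham loop was this same 840 kb loop, displaced by 132 kb. Loops with an anchor in the Syt1 body away from its ends were 6 in sham, with 10 to 33 PETs, and 2 in MCAO, with 10 and 14 PETs. None of these body loops had a counterpart. Summed over the gene-end loops, Syt1 had 112 PETs in sham (3.20 per 1000000) and 98 in MCAO (2.42 per 1000000).

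Syn2 (chromosome 6, 115134902 to 115282626), which encodes synapsin 2, kept the sham contacts of its gene ends in the MCAO list. The loop at its far end had 16 PETs in sham and 18 in MCAO, or 0.457 and 0.444 per 1000000 PETs. The loop inside the gene, from the start to a point near Timp4, had 12 PETs in each list. Timp4, an inhibitor of metalloproteases, lies within Syn2, and its nearest end was 3.07 kb from the sham anchor and 4.35 kb from the MCAO anchor. The additional MCAO loop joined the start to an upstream segment, 115045584 to 115057567, with a span of 93.2 kb and 18 PETs. That segment also carried a loop in sham: an anchor at 115044366 to 115052912 was joined with 10 PETs to the Syn2 body at 115218429 to 115228612, 175 kb away. The segment thus contacted Syn2 in both lists, but at different places. The RefSeq start window of Syn2 lay inside 2 MCAO anchors and no sham anchor, since the sham anchor began 0.803 kb inside the gene.

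Snap25 (chromosome 2, 136713439 to 136782428), the SNARE gene of the plasma membrane, had its 3 MCAO loops at the lower-coordinate end. All of them ran to lower coordinates, with spans of 35.8, 92.8 and 124 kb. They had 11, 15 and 11 PETs, so that 1 of the 3 reached the 12 PETs that match the sham minimum. The far anchors, 136674110 to 136680360, 136616428 to 136635248 and 136588912 to 136601426, held no end of a protein-coding gene. They lay over or within 2.5 kb of the non-coding gene Gm32659. The nearest protein-coding gene was Ankef1, 33.1 kb from the most distal anchor. No sham anchor came within 90.3 kb of either end of Snap25. Genes with at least 3 loops in MCAO and none in sham made up 1.66% of all genes.

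Stx1a (chromosome 5, 135023482 to 135051100), the gene of the SNARE protein syntaxin 1A, had 2 MCAO loops, both from its start across the gene to higher coordinates. The shorter, of 87.6 kb and 10 PETs, ended inside Mlxipl, the gene of a carbohydrate-responsive transcription factor. The longer, of 468 kb and 13 PETs, ended inside Hip1, a gene of clathrin-coated vesicle traffic, 42.5 kb from its nearest end. Both values are close to the minimum of 10 PETs. The nearest sham anchor to an end of Stx1a was 309 kb away.

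**Figure D2:**
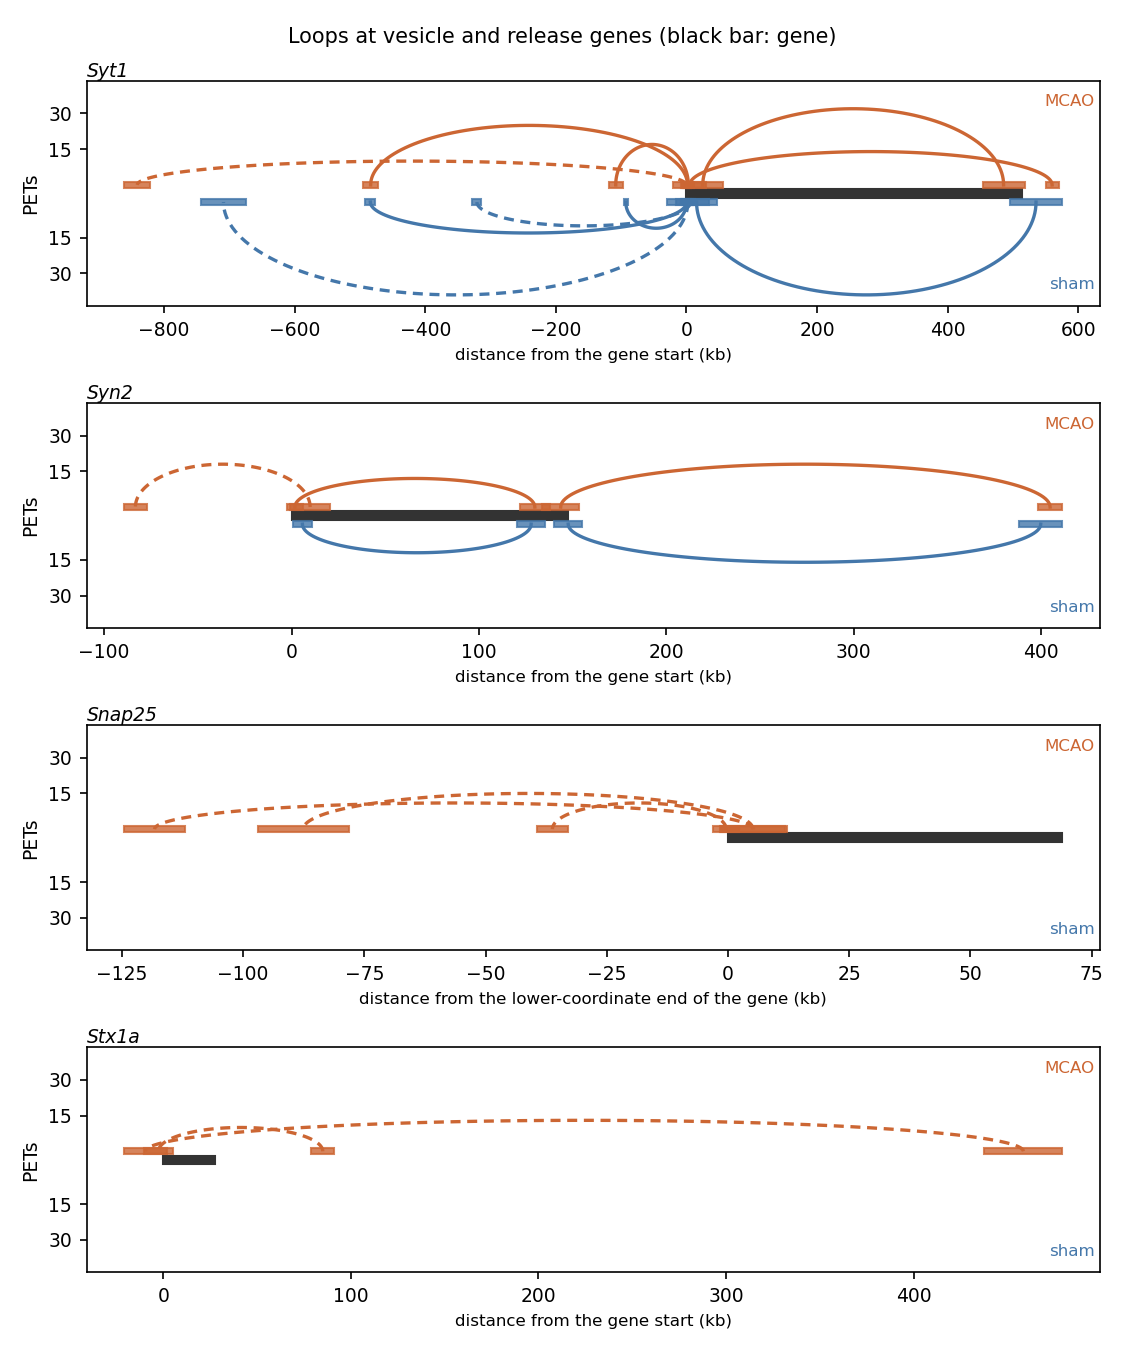
Loops at Syt1, Syn2, Snap25 and Stx1a as arcs between anchor midpoints, with MCAO above and sham below the gene (black bar), anchors as coloured boxes, arc height as PETs and broken lines for loops without a counterpart. The horizontal axis is the distance in kb from the gene start, or from the lower-coordinate end for Snap25. The Syt1 loop 485 kb upstream stands in both lists with 13 PETs in sham and 25 in MCAO.

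The kinase genes shared a contact each between the lists and had further loops in MCAO. Camk2a (chromosome 18, 60925307 to 60988152) had its upper end joined to the ribosomal protein gene Rps14 in both lists, with 18 PETs in sham and 21 in MCAO. These are 0.515 and 0.518 per 1000000 PETs, with spans of 194 and 197 kb. In sham the lower end of Camk2a was joined to Rps14 as well, by a loop of 139 kb with 25 PETs, the most at this gene. This loop had no counterpart in MCAO. There the lower end was joined instead to 60853870 to 60864082, 4.89 kb from the ribosome biogenesis gene Tcof1, with 23 PETs and a span of 70.5 kb. It was joined also to 60604115 to 60640342, inside Synpo, which encodes the spine-associated actin protein synaptopodin, with 17 PETs and a span of 300 kb. The sham list thus had 2 contacts of Camk2a with Rps14, and the MCAO list had 1.

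Camk2b (chromosome 11, 5969629 to 6066357) had all its loops at the start. The contact with the body of the upstream neighbour Nudcd3, a gene of the NudC family, had 14 PETs in both lists, with spans of 54.9 and 51.0 kb. The MCAO list had another loop into Nudcd3, of 116 kb with 11 PETs, and a loop of 26.1 kb with 10 PETs to 6034449 to 6041238 inside Camk2b. Both were under 12 PETs. The Camk2b body had further loops away from its ends, 2 in sham with 11 and 12 PETs and 1 in MCAO with 26 PETs.

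Among the scaffold genes the loops were few, and the differences in number came down to anchor edges. Dlg4 (chromosome 11, 70017203 to 70045535) had 1 sham loop of 161 kb with 21 PETs from its far end to a segment with Slc16a11 and Slc16a13, both genes of monocarboxylate transporters, and the transcription factor gene Bcl6b. The counterpart in MCAO had 27 PETs and a span of 146 kb, but its anchor began 5.95 kb beyond the end of Dlg4. So this loop stood in both lists but was not counted at Dlg4 in MCAO, as its anchor lay outside the gene and beyond 2.5 kb. With a window of 10 kb Dlg4 had 1 loop in each list. With no window or with the whole gene counted, it had 1 in sham and 0 in MCAO, as with 2.5 kb.

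Shank2 (chromosome 7, 143978077 to 144426043) had the same 2 contacts in both lists, each from its upper end to a point inside the gene. The longer had 15 PETs in sham and 19 in MCAO, with spans of 205 and 209 kb. The shorter had 10 PETs in sham and 27 in MCAO, or 0.286 and 0.666 per 1000000, a log2 ratio of 1.22. This was the greatest rise among the 11 matched pairs of loops at the 10 genes. The MCAO anchor inside the gene was wider, 35.8 kb against 4.09 kb in sham, and the part of this width in the rise was not tested. Loops in the Shank2 body away from its ends were 5 in sham and 10 in MCAO. A pair of these, of 91.6 kb in sham and 88.2 kb in MCAO with 10 PETs each, had each other as counterpart, and the rest had none. With the whole gene counted, Shank2 had 7 loops in sham and 12 in MCAO, and Syt1 had 11 and 7.

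Homer1 (chromosome 13, 93303757 to 93405129) had 1 loop in each list, at opposite ends of the gene. The sham loop joined the far end to a point inside the gene, with a span of 65.3 kb and 11 PETs. The MCAO loop joined the start to 93601506 to 93607411, past the far end, with a span of 297 kb and 12 PETs. The nearest gene end to that distal anchor, 9.48 kb away, was of Bhmt, a methyltransferase gene of methionine metabolism. The equal numbers at Homer1 thus stood for different contacts, neither with a counterpart.

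Shank3 (chromosome 15, 89493013 to 89560261) had no loop within 2.5 kb of its ends. The nearest sham anchor, 89582829 to 89670160, lay 22.6 kb away and belonged to a loop of 62 PETs. In MCAO the nearest anchor, 89515280 to 89555896, lay inside the gene 4.37 kb from its end. Its loop of 680 kb with 10 PETs led to Alg10b, a glycosyltransferase gene. With a window of 10 kb Shank3 had 0 loops in sham and 2 in MCAO.

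**Figure D3:**
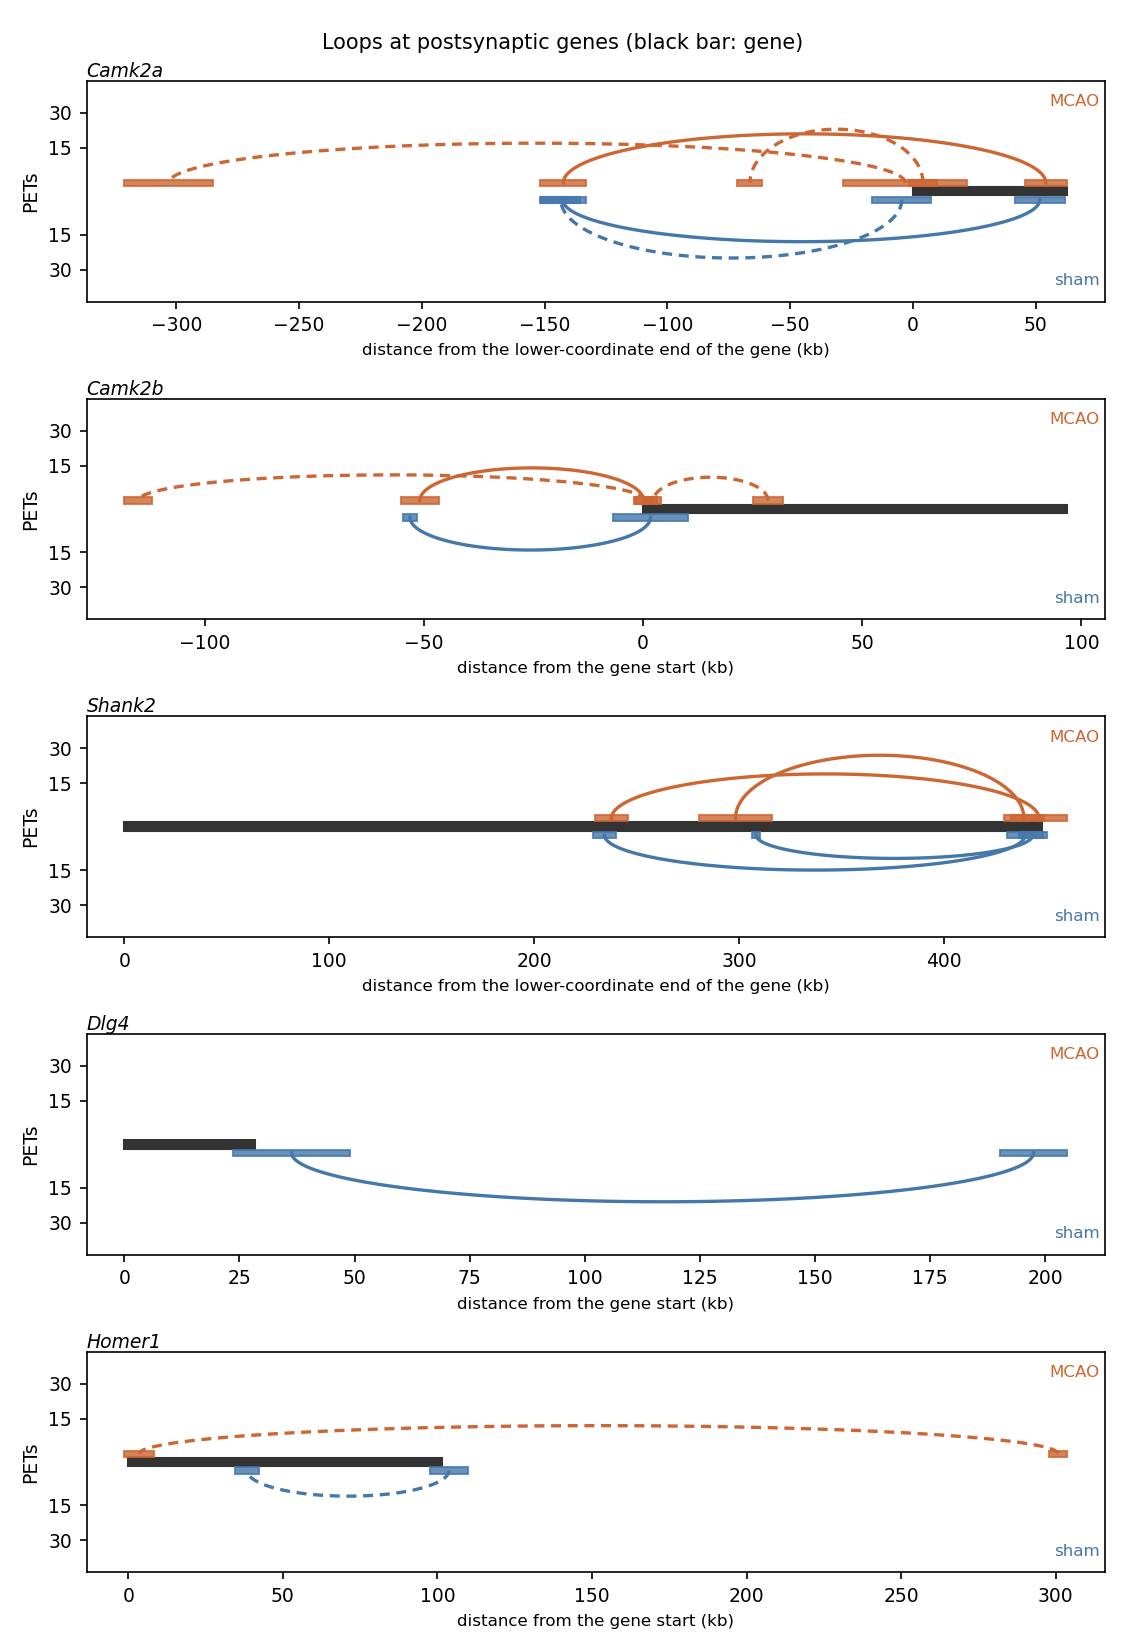
Loops at Camk2a, Camk2b, Shank2, Dlg4 and Homer1, drawn as in the map of the vesicle and release genes, with the distance in kb from the gene start or, for Camk2a and Shank2, from the lower-coordinate end. The 2 Shank2 contacts lie above each other in both lists, and the MCAO counterpart of the Dlg4 loop is not drawn because its anchor began 5.95 kb beyond the gene.

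Contacts were also sorted by where they led. The far anchor reached an end of another protein-coding gene in 4 of 14 sham loops (28.6%, 8.39 to 58.1) and in 2 of 22 MCAO loops (9.09%, 1.12 to 29.2). Over all gene-loop pairs of all genes the shares were 57.4% and 56.5%, of which the first lies inside the sham interval and the second above the MCAO interval. The far anchor had its midpoint inside the same gene in 5 sham loops (35.7%, 12.8 to 64.9) and 5 MCAO loops (22.7%, 7.82 to 45.4), against 4.59% and 5.25% of all pairs. Gene length and gene density were not matched in this comparison, and Syt1 and Shank2 are 513 and 448 kb long. For the 7 genes with a known strand, 7 of 10 sham loops and 13 of 14 MCAO loops had an anchor at the gene start, against 70.5% and 71.4% of all pairs. The sham loops without one were at the far ends of Syn2, Dlg4 and Homer1, and the MCAO loop without one was at the far end of Syn2.

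Loops with a counterpart made up 10 of 14 in sham (71.4%, 41.9 to 91.6) and 10 of 22 in MCAO (45.5%, 24.4 to 67.8). For all gene-end loops the shares were 33.7% and 27.6%. The rule is that both anchor midpoints lie within 1 anchor width, taken as the mean width of the anchors of the wider loop. With midpoints within 10 kb, 7 of 14 sham loops and 6 of 22 MCAO loops had a counterpart. In the 11 matched pairs, more PETs were counted in MCAO in 7, fewer in 2 and equal numbers in 2. Per 1000000 PETs the median log2 ratio of the pairs was 0.01, with 6 pairs higher in MCAO and 5 lower. The Syt1 end-to-end loop entered 2 of these pairs, with log2 ratios of -1.69 and -0.50.

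The spans of sham loops ranged from 54.9 to 711 kb and those of MCAO loops from 26.1 to 840 kb. The medians were 178 kb (exact interval of the median 93.2 to 485) and 134 kb (92.8 to 300), and the intervals overlap. Over all gene-end loops the medians were 359 and 292 kb. The median number of PETs at the 10 genes was 14.5 in both lists. Loops of 10 or 11 PETs were 4 of 14 in sham and 6 of 22 in MCAO, against 34.7% and 32.9% of all gene-end loops.

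**Figure D4:**
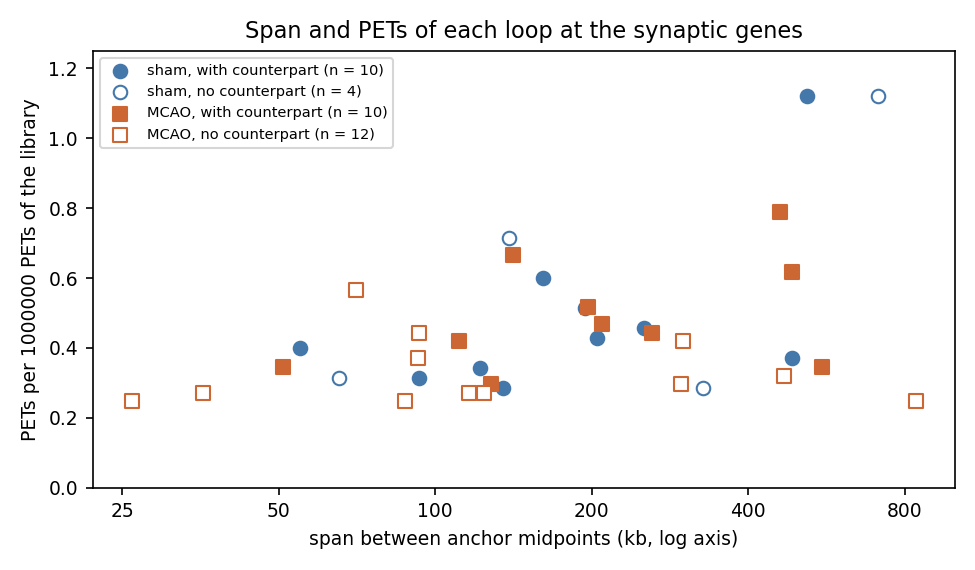
Span (horizontal log axis, kb) and PETs per 1000000 PETs of the library (vertical axis) of each loop at the 10 genes, in sham (blue circles) and MCAO (orange squares), filled where the loop had a counterpart. The 2 sham loops of 39 PETs at Syt1 lie highest at 1.12, and the 12 MCAO loops without a counterpart lie between 0.247 and 0.567.

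A wider list of 88 genes of vesicle release and the postsynaptic density gave more genes with a gain than with a loss of loops. More loops in MCAO were found at 35 of them (39.8%), fewer at 19 (21.6%) and equal numbers at 34. For all protein-coding genes the shares were 28.7% with more, 20.7% with fewer and 50.6% with equal numbers. The median difference was 0 in both sets. With the MCAO minimum raised to 12 PETs, 27 genes had more and 25 fewer. The shares of all genes were not computed at this minimum, so these counts cannot be set against those above. Of 53 vesicle genes 20 had more and 13 fewer, and of 35 postsynaptic genes 15 had more and 6 fewer. The shares with more were 37.7% and 42.9%, and the postsynaptic group holds scaffold and kinase genes together.

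The genes with a difference of at least 3 loops ran both ways. Kalrn, an exchange factor gene of dendritic spine growth, had 0 loops in sham and 5 in MCAO, and the vesicle membrane gene Syngr1 had 0 and 4. The vesicle GTPase gene Rab3a and the postsynaptic scaffold gene Tanc2 each had 0 and 3, and the active zone gene Ppfia2 2 and 5. In the other direction Rab3c, a relative of Rab3a, had 4 and 0, and Nrgn, a calmodulin-binding postsynaptic protein gene, had 3 and 0. The related genes Rab3a and Rab3c thus differed in opposite directions. A gain of at least 3 was seen at 3.03% of all genes and a loss of at least 3 at 1.33%. The most looped genes of the list were Sv2b with 5 and 3, Cnksr2 with 3 and 5, Ppfia2, and Ppp1r9a and Sh3gl2 with 4 and 3 each. Sipa1l1, with 3 and 4, tied with the last 3 of these at 7 loops in all. No loop was listed in either library at 14 of the 88 genes, against 38.4% of all protein-coding genes.

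**Figure D5:**
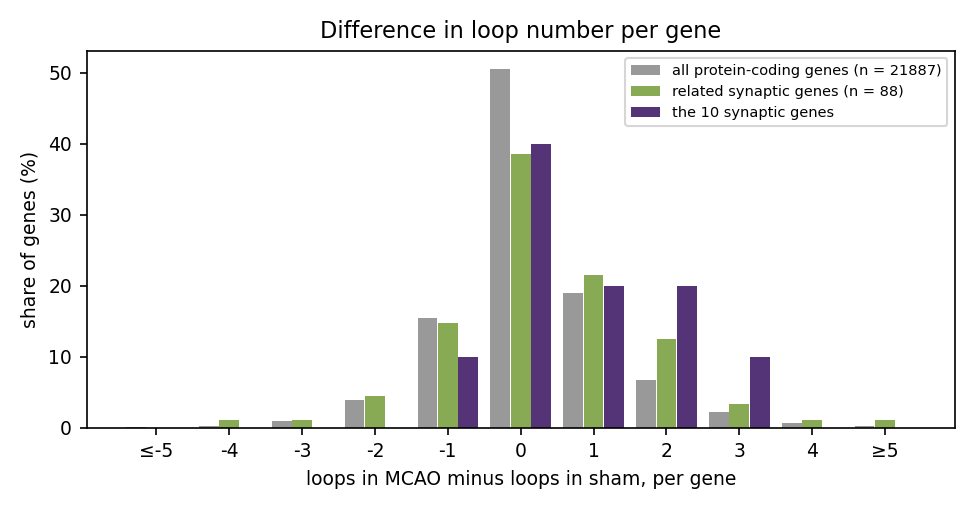
Share of genes (vertical axis, %) by the difference in loop number, MCAO minus sham (horizontal axis), for all 21887 protein-coding genes, the 88 related synaptic genes and the 10 synaptic genes. A difference of 0 was the most frequent single value in all 3 sets, at 4 of the 10 genes and 34 of the 88. Genes with a gain of any size numbered 5 of the 10 and 35 of the 88. Among all protein-coding genes 28.7% had a gain and 50.6% a difference of 0.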

How the data were processed

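Frozen cortex was turned into Arima Hi-C libraries, per the labels' protocols. The submitters' processing notes name HiC-Pro, Bowtie2 and mm10 without versions, and a loop caller is not given in the sources used here. Counts of PETs per loop and reads per anchor were deposited by the authors without scaling. The density signal that the authors deposited fits PETs per kb of anchor and 1000000 PETs of the library, as every loop of a list then gave 1 library total. That total is the depth used. The authors' enrichment ratio was not used for any result. The authors' deposited p-values, with PETs for ties, served only to cut the lists to equal length. Their FDR (at most 0.05) did not enter that step.

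Gene positions, start windows and strand came from RefSeq tables on GRCm38.p6. Where no window was listed, gene ends are called lower and upper. Distances, matches and counts were computed with Python 3.11.15, pandas 2.3.3 and scipy 1.17.1. The code was checked on loops planted within the limits of the rules and on loops moved far away. That check does not measure how often real loops are missed or wrongly matched. Intervals are 95% exact binomial (Clopper-Pearson) or order-statistic intervals and cover counting error only, as PETs may not be independent molecules and loops of a gene share anchors. The 10 genes, the 88 related genes and the alternatives were chosen with earlier results of these data known. All 10 genes were named, with genes at their far anchors and, of the related genes, those with a difference of at least 3 or the 5 with most loops (ties by symbol, which left out Sipa1l1, named beside them). Alg10b was named after its values were seen, and a gene at a far anchor that this rule selects is not reported here.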

Additional observations from a re-analysis of the deposited data

How the results depend on the processing

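No paired analysis was possible because each group has 1 loop list. Of 130 values recomputed under 8 alternatives, 119 stayed within their interval (or within 1.5 times, for counts) and 11 moved outside it. A change of direction could show only in the ratio and in single-gene differences other than 0, and none was seen. The intervals of single genes are wide (-6.26 to 6.26 loops for Syt1), so staying within them is little evidence of stability. With an anchor anywhere in the gene counted, the loops rose to 28 in sham and 40 in MCAO and the sham share with a counterpart was 39.3%. At a minimum of 15 PETs, 7 and 11 loops were left, and 5 genes had a loop in MCAO. Of the related genes, 30 then had more loops in MCAO and 11 had fewer, with no share over all genes computed. Then Stx1a, Homer1 and Camk2b had no difference and Snap25 1 loop. The ratio of loop numbers was 1.14 to 1.93 over all settings, and its interval began at 1.00 with a window of 10 kb and below 1 in the others. Of the single-gene differences, 4 of 60 moved, at Snap25 (4) and Shank2 (5) with the whole gene and at Shank3 with the whole gene (1) and with 10 kb (2). For Syt1 the difference was 0 as reported and -4 to 1 elsewhere. The minimum of 10 PETs limits every statement on a loop found in 1 list.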

Other observations

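Loops that span a whole gene, with both anchors outside it, were counted for the same 10 genes. Such enclosing loops numbered 1 in sham and 4 in MCAO at Syn2 and 1 and 3 at Dlg4, while at Homer1 they numbered 3 and 0. Snap25 lay inside 1 enclosing loop in each list. Syt1 and Camk2b lay inside 1 in sham and 0 in MCAO, and Shank2 inside 0 and 1. Stx1a, Shank3 and Camk2a had none in either list. These counts were made after the gene-end loops were seen, the MCAO list is longer and its library deeper, and no share over all genes was computed, so nothing is read from them.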
